A study of Rattus norvegicus with 22 samples.

Results

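The cholesterol synthesis and uptake genes described here are 7 genes of the 32883 in the count table, Hmgcs1, Fdft1, Sqle, Cyp51, Dhcr7, Insig1 and Srebf2. They were found by name, as the symbol that follows the Ensembl identifier of a gene. All 7 were found, 1 gene per symbol, and all 7 passed the filter on low counts in every comparison. They lie in the lists of synthesis and its control used further down, and none is in the list of uptake and transport. Total RNA of the ventral cervical spinal cord (segments C3 to C6) had been sequenced with 1 library per rat from adult Sprague-Dawley rats aged 3 to 4 months. The groups were 5 intact males, 5 males whose testes had been removed (GDX), 6 intact females and 6 females whose ovaries had been removed (OVX). Tissue was taken 2 weeks after surgery from GDX and OVX rats, and intact rats carried no further treatment in the labels. The paper describes surgery under anesthesia for GDX and OVX rats and no sham surgery for intact rats. Loss of the gonads and the surgery itself therefore cannot be told apart. Rats are named by group and by the number in their labels. Between 12371756 and 17571887 reads were counted per library, and the 7 genes together took between 0.15% and 0.184% of them. Levels are given as CPM, a gene's count scaled to the same library size with TMM factors, and a log2 fold change is that of the first group named over the other. After a mean level ± gives the SD over rats, and after a log2 fold change the SE of the fit.

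The libraries differ in fragment size as well as in group. The study lists an average input fragment size for each library, which falls into a shorter class of 15 libraries and a longer class of 7. Every GDX and OVX library belongs to the shorter class. Of the intact rats it holds males 2 and 5 and females 1 and 4, and the longer class holds the other intact rats and no others. Gonadectomy and class are therefore partly confounded in comparisons with intact rats, and the class difference of the 7 genes among intact rats is given further down. The tissue was checked against cell type markers. All 8 motor neuron markers had counts, with a summed level of 470.1 to 853 CPM per library, and Prph was the most abundant of them. All 10 oligodendrocyte and myelin markers had counts as well, with a summed level of 22650 to 28550 CPM, led by Mbp. In such bulk tissue, fewer cells of a type and less RNA per cell cannot be told apart.

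Cells build cholesterol from acetyl-CoA through the mevalonate pathway, then through squalene and a series of sterols. The brain and spinal cord make nearly all of their cholesterol locally, because lipoprotein particles of the blood do not cross the blood-brain barrier, and most of it lies in myelin made by oligodendrocytes. The transcription factor SREBP-2, the product of Srebf2, is held in the endoplasmic reticulum by Insig proteins while sterols are plentiful, and is released to turn on genes of synthesis and uptake when they are scarce.

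Promoter sequences are shown because 6 of the 7 genes had a positive r in every pair among rats of a group, some pairs weakly, as described further down, and because SREBP-2 and the factor NF-Y are known to act on promoters of such genes. The RefSeq promoter table (build GRCr8, matched by symbol) holds 5 of the 7 genes, and Fdft1 and Sqle are the other 2. Each entry was searched on both strands for the sterol regulatory element written as TCACNCCAC and for the NF-Y box written as CCAAT, and no match of one overlaps a match of the other. The NF-Y box was found in 3 of the 5 promoters, beside 37.5% of the 33469 promoters in the table. Hmgcs1 held it 2 times, and 11.2% of all promoters hold it more than 1 time. The sterol regulatory element in this spelling was found in 0 of the 5, beside 1.12% of all promoters, which says only that these letters are not in the window. Shown are the 250 bases before the transcript start of the 3 promoters with a match, with the NF-Y box in capitals, here always as its reverse complement. They lie at chr2:53382054-53382303 on the plus strand for Hmgcs1, chr4:8057770-8058019 on the minus strand for Insig1 and chr7:115543057-115543306 on the plus strand for Srebf2.
Hmgcs1: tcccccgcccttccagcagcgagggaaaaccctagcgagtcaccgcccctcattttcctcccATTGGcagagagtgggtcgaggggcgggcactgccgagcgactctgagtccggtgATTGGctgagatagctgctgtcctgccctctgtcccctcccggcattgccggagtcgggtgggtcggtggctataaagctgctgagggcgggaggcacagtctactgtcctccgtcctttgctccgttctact
Insig1: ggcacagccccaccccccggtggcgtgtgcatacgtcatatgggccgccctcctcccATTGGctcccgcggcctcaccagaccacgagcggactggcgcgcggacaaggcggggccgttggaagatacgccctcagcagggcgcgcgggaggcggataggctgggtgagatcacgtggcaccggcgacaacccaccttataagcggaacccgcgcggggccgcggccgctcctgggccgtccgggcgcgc
Srebf2: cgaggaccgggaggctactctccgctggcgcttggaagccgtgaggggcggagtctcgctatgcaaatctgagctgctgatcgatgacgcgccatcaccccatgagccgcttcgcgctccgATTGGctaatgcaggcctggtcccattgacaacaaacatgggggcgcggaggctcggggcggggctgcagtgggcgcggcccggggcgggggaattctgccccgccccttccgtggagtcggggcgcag
The boxes of Hmgcs1 begin 188 and 133 bases before the start, that of Insig1 193 bases and that of Srebf2 129 bases before it. The promoters of Cyp51 and Dhcr7 held neither motif. Cyp51 was in the closest pair, with Hmgcs1 (r = 0.865), while Srebf2, which holds a box, is the gene outside the 6. Whether the boxes relate to these correlations was not tested.

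**Figure D1:**
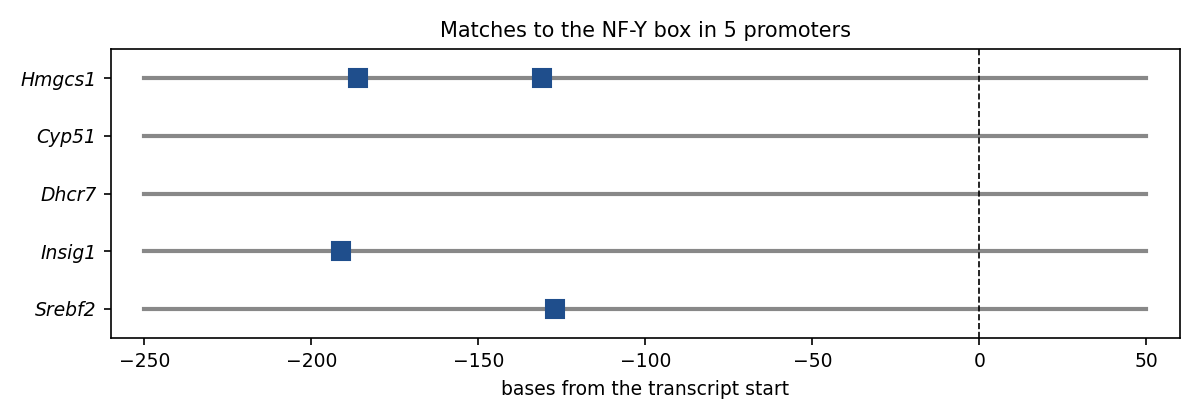
Position of each match to the NF-Y box (square) in the 5 promoters of the RefSeq table, as distance in bases from the transcript start (dashed line), with each grey line covering 250 bases before the start to 50 after it. The 4 matches lie between 193 and 125 bases before the start.

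Hmgcs1 encodes the cytosolic HMG-CoA synthase, which makes the substrate of the step that commits the pathway to mevalonate. Its level was 589, 479, 608, 553 and 559 CPM in intact males 1, 2, 3, 5 and 6, and 579, 541, 626, 619 and 609 CPM in GDX males 1, 2, 4, 5 and 6. In intact females it ran from 442 CPM over a median of 511 to 530.1, and in OVX females from 551 over 579 to 586. The lowest OVX female thus lay above the highest intact female, while the male groups overlapped, with intact male 2 lowest and 3 of the 5 GDX males above every intact male. In order of their means, intact females (503 ± 30.9 CPM, n = 6) stood below intact males (558 ± 49.4, n = 5), OVX females (573 ± 15, n = 6) and GDX males (595 ± 34.8, n = 5), and neighbours did not differ beyond the larger SD of the pair except intact females and intact males.

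The log2 fold change of Hmgcs1 was 0.19 ± 0.04 in OVX against intact females, a level 14.1% higher with a 95% interval of 7.41% to 21.2%, and all 6 OVX females lay above the median of the intact ones. It did not pass the test, with an adjusted p of 0.149 in edgeR's quasi-likelihood test over all genes. DESeq2 called it with an adjusted p of 0.00249, and edgeR did without intact female 1 (adjusted p = 0.0742), within a range of 0.00249 to 0.759 over its alternatives. Among the libraries of the shorter class, which leaves intact females 1 and 4, the log2 fold change was 0.13 (adjusted p = 0.759). In GDX against intact males it was 0.09 ± 0.06 (adjusted p = 0.419), with an interval from -0.04 to 0.22. Without intact male 2 this value was 0.04, and in the shorter class alone 0.20, where intact males 2 and 5 are the comparison group, with adjusted p of 0.154 to 0.743 over its alternatives.

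**Figure D2:**
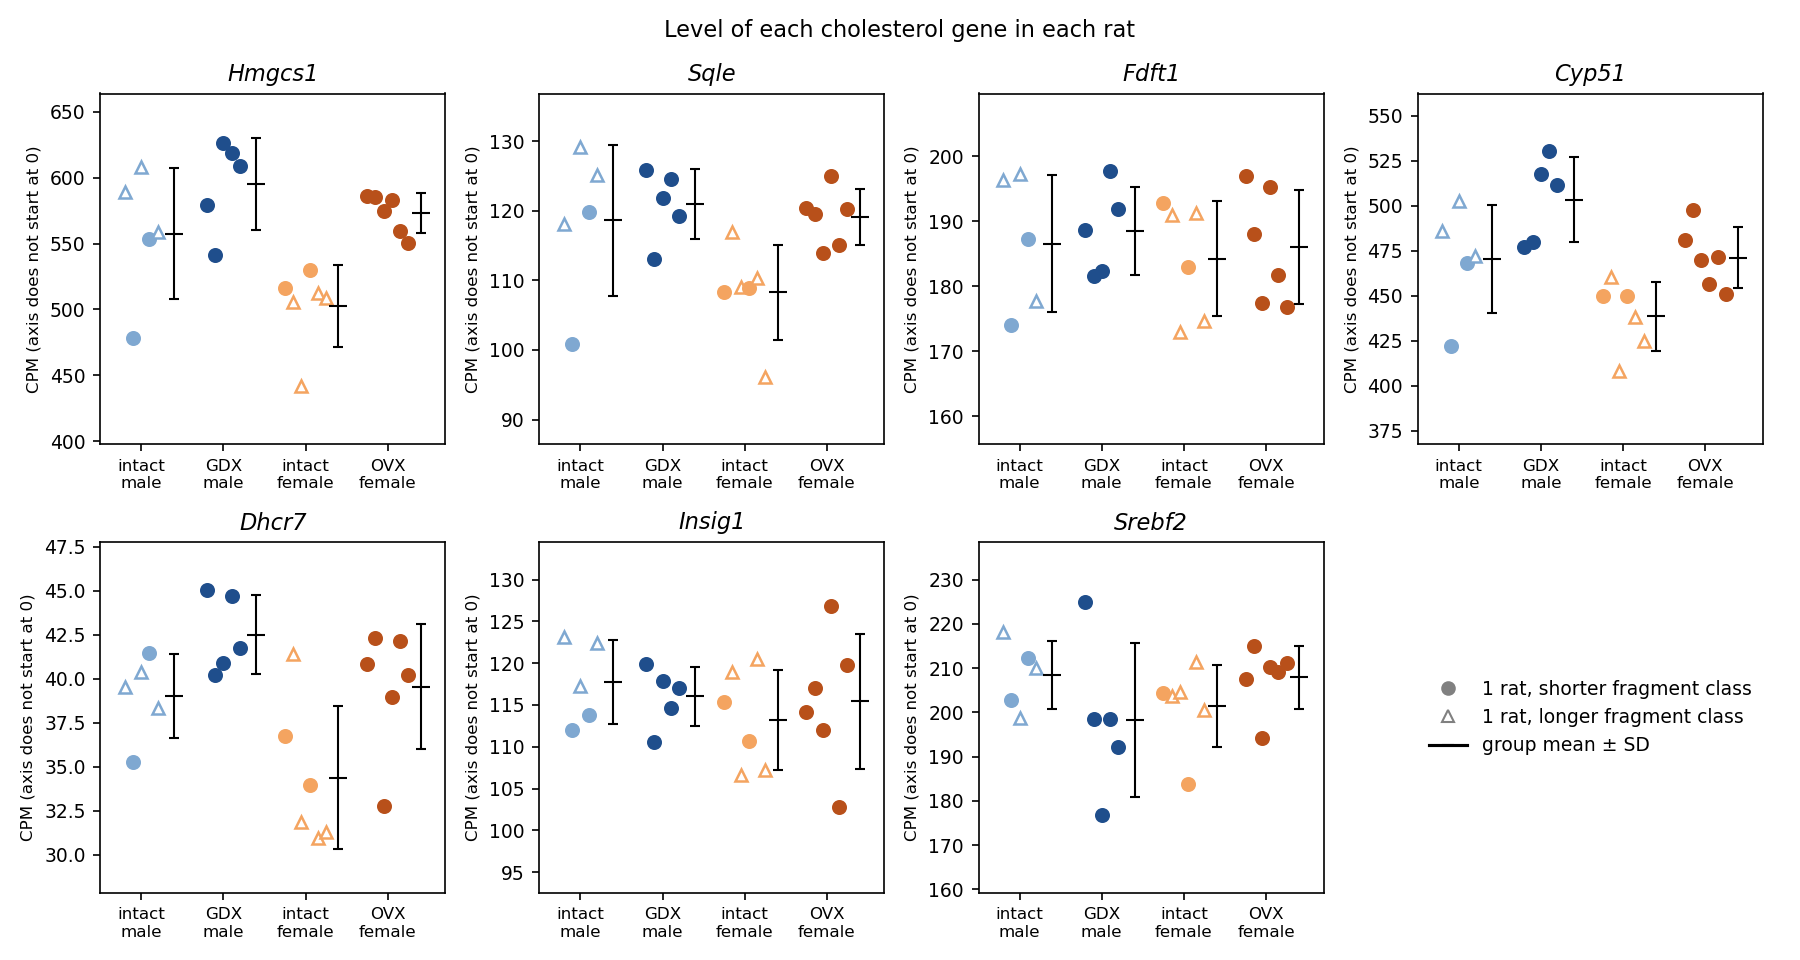
CPM of each of the 7 genes in each of the 22 rats by group, with filled circles for the shorter and open triangles for the longer fragment class and a bar for the group mean ± SD; axes do not start at 0. The OVX and intact females do not overlap for Hmgcs1, and every other pair of groups compared overlaps for every gene.

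The next 2 genes take the pathway into and out of squalene. Fdft1 encodes squalene synthase, which joins farnesyl pyrophosphate units into squalene. It read 196, 174, 197, 187 and 178 CPM in intact males and 189, 182, 182, 198 and 192 CPM in GDX males, in the order of rats given above. Intact females ran from 173 over 187 to 193 CPM and OVX females from 177 over 185 to 197. All 4 groups covered nearly the same range, and Fdft1 varied least of the 7 over the 22 rats, the highest library at 1.14 times the lowest. The 4 group means lay between 184 and 189 CPM, all within 1 SD of each other. Its log2 fold change was 0.01 in GDX males (interval -0.09 to 0.11, adjusted p = 0.921) and 0.01 in OVX females (interval -0.07 to 0.10, adjusted p = 0.951). The sign of these values turned without single rats, to -0.01 without GDX male 5, -0.01 without intact male 2 and -0.01 without intact male 6 in males, and to -0.004 without intact female 3, -0.001 without intact female 6 and -0.003 without OVX female 1 in females.

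Sqle encodes squalene epoxidase, an oxygen-dependent enzyme that controls flux late in the pathway. Intact males read 118, 101, 129, 119.8 and 125 CPM and GDX males 126, 113, 122, 125 and 119 CPM. Intact females ran from 96 over 109 to 117 CPM, and OVX females from 114 over 119.9 to 125. Intact females were the low group, at 108 ± 6.75 CPM (n = 6), and the other 3 means, 119 ± 10.9 (n = 5), 119 ± 4.02 (n = 6) and 121 ± 5.09 (n = 5), lay within 1 SD of each other. Of the OVX females 4 of 6 lay above every intact female, and the groups overlapped through intact female 2. The log2 fold change in OVX females was 0.14 ± 0.04 (adjusted p = 0.282), and in GDX males 0.02 ± 0.06 (adjusted p = 0.851). The value in males was -0.03 without intact male 2 and 0.06 without intact male 3, 0.13 with fragment class as a term and 0.13 in the shorter class alone.

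Cyp51 encodes lanosterol 14-alpha demethylase, the cytochrome P450 that works on the first sterol of the pathway. Its levels were 486, 422, 503, 468 and 472 CPM in intact males and 477, 480, 518, 531 and 512 CPM in GDX males. The lowest, median and highest values were 408, 444 and 460.3 CPM in intact females and 451, 471 and 498 in OVX females. Intact females 3 and 6 were at the low end and GDX males 4, 5 and 6 at the high end, above every rat of the other groups, with intact male 2 again lowest among males. Means went from intact females (439 ± 19.1 CPM, n = 6) through intact males (470.3 ± 30.1, n = 5) and OVX females (471 ± 16.8, n = 6), which did not differ beyond their spread, to GDX males (503 ± 23.6, n = 5). The log2 fold change was 0.10 ± 0.05 (adjusted p = 0.3) in GDX males and 0.10 ± 0.04 (adjusted p = 0.334) in OVX females. The value in males was 0.06 without intact male 2. In the shorter class alone it was 0.18 in males and 0.06 in females.

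Dhcr7 encodes the reductase of the last step of the Kandutsch-Russell branch, and loss of its human counterpart causes Smith-Lemli-Opitz syndrome. Intact males read 39.5, 35.3, 40.4, 41.5 and 38.4 CPM, and GDX males 45.1, 40.2, 40.9, 44.7 and 41.7 CPM. Intact females ran from 30.9 over 32.9 to 41.4 CPM, and OVX females from 32.8 over 40.5 to 42.3. Among OVX females rat 3 was far below the other 5, and among intact females rat 2 was above the other 5, so that the groups overlapped. All 5 GDX males lay above the median of the intact males, and 3 of them above every intact male. Dhcr7 had the widest relative spread of the 7 genes over the 22 rats, with the highest library at 1.46 times the lowest. Its group means were 34.4 ± 4.06 CPM (n = 6) in intact females, 39 ± 2.38 (n = 5) in intact males, 39.6 ± 3.55 (n = 6) in OVX females and 42.5 ± 2.23 (n = 5) in GDX males. Neighbours in this order did not differ beyond the larger SD of the pair except intact females and intact males. The log2 fold change was 0.12 ± 0.06 (adjusted p = 0.214) in GDX males and 0.20 ± 0.08 (adjusted p = 0.355) in OVX females, with an interval in females from 0.04 to 0.36.

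The last 2 genes belong to the control of the pathway. Insig1 encodes a protein of the endoplasmic reticulum that retains the SREBP escort in the presence of sterols, and is itself a known SREBP target. Intact males read 123, 112, 117, 114 and 122 CPM and GDX males 119.9, 111, 118, 115 and 117 CPM. Intact females ran from 107 over 113 to 121 CPM, and OVX females from 103 over 116 to 127. OVX females held both the lowest rat (5) and the highest rat (4) of all 22, and the 4 means, from 113 CPM in intact females to 118 in intact males, lay within 1 SD of each other. The log2 fold change was -0.03 in GDX males (interval -0.12 to 0.06, adjusted p = 0.765) and 0.03 in OVX females (interval -0.07 to 0.13, adjusted p = 0.903). Without 1 rat the value in males ran from -0.04 without intact male 2 to -0.01 without intact male 1, and that in females from 0.00 without OVX female 4 to 0.06 without OVX female 5. The sign in males turned with fragment class as a term (0.04) and in the shorter class alone (0.04).

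Srebf2 encodes SREBP-2 itself. It read 218, 203, 199, 212 and 210.1 CPM in intact males and 225, 199, 177, 198 and 192 CPM in GDX males. Intact females ran from 184 over 204 to 211 CPM, and OVX females from 194 over 209.7 to 215. GDX males held both the highest rat of all (1) and the lowest (4), and 4 of the 5, all but rat 1, lay below every intact male. For GDX male 2 the gap was within rounding, at 198.6 CPM against 198.7 in intact male 3. The means were 198 ± 17.4 CPM (n = 5) in GDX males, 201 ± 9.29 (n = 6) in intact females, 208 ± 7.2 (n = 6) in OVX females and 208 ± 7.69 (n = 5) in intact males, neighbours that did not differ beyond their spread. Its log2 fold change was -0.08 ± 0.06 (adjusted p = 0.437) in GDX males, 0.05 ± 0.04 (adjusted p = 0.744) in OVX females, and the difference between these responses was -0.12 ± 0.07 (adjusted p = 0.486). Leaving out 1 rat moved the value in GDX males from -0.13 without GDX male 1 to -0.04 without GDX male 4, and in OVX females from 0.02 without intact female 4 to 0.06 without OVX female 3.

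The comparison of GDX with intact males asks how the tissue differs after the surgery that removed the testes. In it, 0 of the 7 genes were called at an adjusted p under 0.1 by edgeR, beside 1995 of 14931 genes tested (13.4%). At an unadjusted p under 0.05 the count was also 0 of 7, beside 23.8% of all genes, and DESeq2 called 0, beside 14.1%. The groups did not overlap for 0 of 7, beside 7.17% of all genes in either direction. Of the 7 genes, 5 had a positive log2 fold change and 2 a negative one, with a median of 0.02 beside 0.002 over all genes. The values ran from -0.08 for Srebf2 to 0.12 for Dhcr7, and the intervals of the 7 genes reached no further than a change of -12.6% for Srebf2 and of 18.1% for Dhcr7.

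OVX females had higher means than intact females for all 7 genes, by small amounts that did not pass the test. edgeR called 0 of the 7 in OVX against intact females, beside 5 of 14910 genes tested (0.0335%), and DESeq2 called 1, Hmgcs1, beside 174 of 14910 (1.17%). At an unadjusted p under 0.05 there were 4 of 7, Hmgcs1, Sqle, Cyp51 and Dhcr7, beside 10.2% of all genes, and all 4 were higher in OVX females. The groups did not overlap for 1 of 7, Hmgcs1, beside 0.516% of all genes in either direction. The median log2 fold change of the 7 was 0.10, beside 0.003 over all genes, and the values ran from 0.01 for Fdft1 to 0.20 for Dhcr7. Within the shorter class alone Fdft1 had a log2 fold change of -0.02, and the other 6 kept a positive value. Markers of other cells had the following values between the same groups, where edgeR called 1 of them, Kdr. The 8 motor neuron markers had a median log2 fold change of -0.33 with 0 of 8 called in edgeR, 7 at an unadjusted p under 0.05 and 3 called in DESeq2. The same markers had a median log2 difference of 0.38 between the longer and the shorter class among intact rats, with 8 of 8 higher in the longer class. No OVX female belongs to that class, while intact females 1 and 4 share the shorter class with the OVX females. Class and surgery are therefore partly confounded for these markers, and the part of each was not tested. Their summed level was 568 to 802 CPM in intact and 470.1 to 670.1 CPM in OVX females, led by Prph. It was 568 CPM in intact female 1 and 692 CPM in intact female 4. The 5 endothelial markers had a median of 0.49 with 5 of 5 higher, all at an unadjusted p under 0.05, 1 called in edgeR and DESeq2 alike, Kdr, and a summed level of 78.1 to 152 against 131 to 191 CPM, led by Flt1. The neuron list, led by Nefm, had a median of -0.16 and a summed level of 9865 to 13480 against 8691 to 11660 CPM, with 5 of 6 lower, 0 of 6 called in edgeR, 4 at an unadjusted p under 0.05 and 2 called in DESeq2, Nefl and Stmn2. The astrocyte list, led by Gfap, had a median of 0.09 and a summed level of 5924 to 7607 against 6813 to 7708 CPM, with 0 of 8 called in edgeR, 3 at that level, all higher, and 1 called in DESeq2, Slc1a3. The oligodendrocyte and myelin list, at 0.05 with 0 of 10 called in edgeR, 2 at an unadjusted p under 0.05 and 0 called in DESeq2, had a summed level of 23600 to 26460 CPM in intact and 23240 to 26770 CPM in OVX females. The oligodendrocyte precursor list, led by Bcas1, had a median of 0.08 and a summed level of 981 to 1129 against 1009 to 1171 CPM, with 5 of 5 higher, 0 of 5 called in edgeR, 1 at an unadjusted p under 0.05 and 1 called in DESeq2, Gpr17. The microglia list, led by Csf1r, had a median of 0.12 and a summed level of 139 to 174 against 154 to 181 CPM, with 6 of 6 higher, 0 of 6 called in edgeR, 2 at that level and 0 called in DESeq2. The meningeal and fibroblast list had a median of 0.31 with 7 of 7 higher, and the Schwann cell and root list 0.02 with 3 of 5 higher, both with 0 called in edgeR, 0 at that level and 0 called in DESeq2. No marker of these lists was at 0, and their part in the levels of the 7 genes was not tested.

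**Figure D3:**
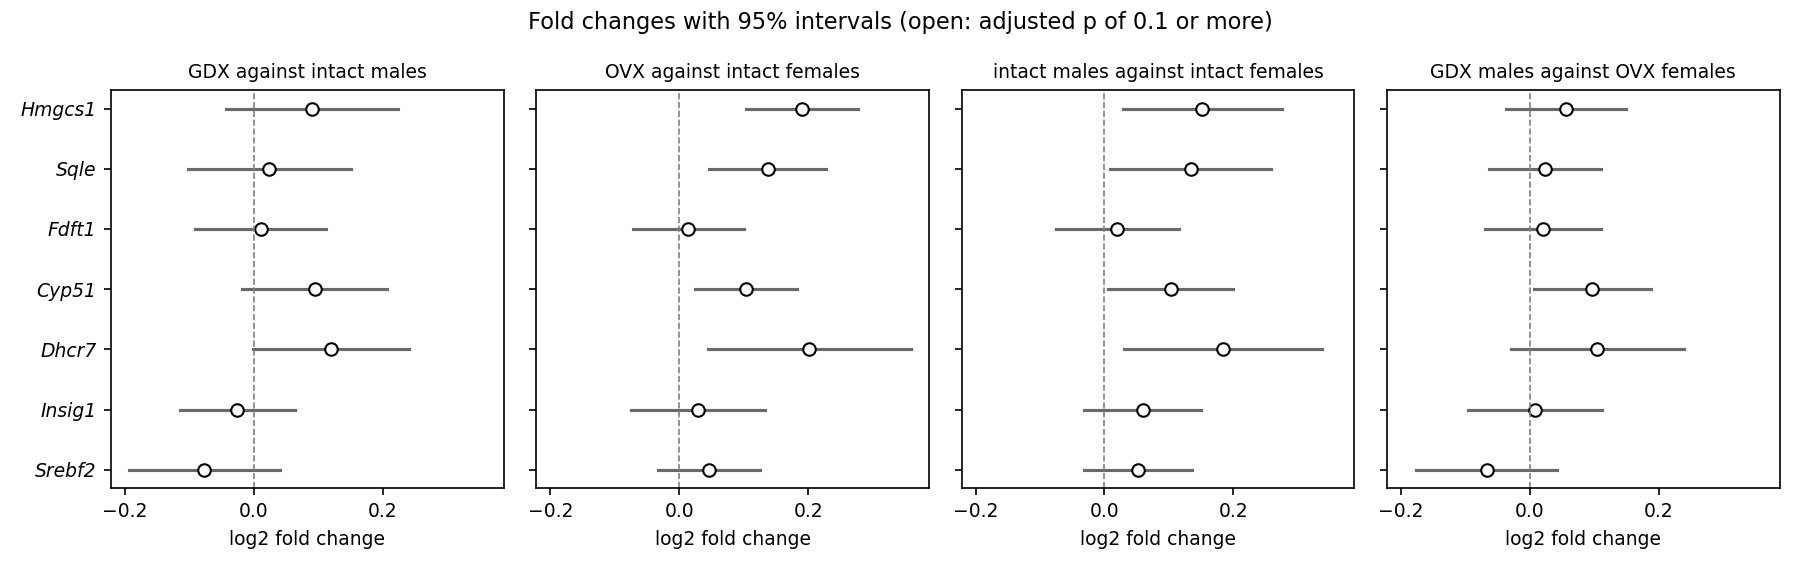
Log2 fold change of each of the 7 genes (circle) with its 95% interval (line) in 4 comparisons of groups, where an open circle marks an adjusted p of 0.1 or more in edgeR. 0 of 7 genes passed the test in any panel. The intervals of Hmgcs1, Sqle, Cyp51 and Dhcr7 lie above 0 in OVX against intact females and in intact males against intact females. That of Cyp51 also lies above 0 in GDX males against OVX females.

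Intact males had higher means than intact females for all 7 genes, again without passing the test. edgeR called 0 of 7, beside 599 of 14937 genes tested (4.01%), and DESeq2 called 0, beside 5.49%. At an unadjusted p under 0.05 there were 4 of 7, beside 15.5% of all genes, and these were again Hmgcs1, Sqle, Cyp51 and Dhcr7. This comparison shares its 6 intact females with the one of OVX females, so the 2 are not separate observations of the low female values. The median log2 fold change of the 7 was 0.10, beside 0.003 over all genes, with 0.15 ± 0.06 for Hmgcs1, 0.13 ± 0.06 for Sqle, 0.10 ± 0.05 for Cyp51 and 0.18 ± 0.07 for Dhcr7. Calls appear here when single libraries are left out. Without intact male 2, calls were made for Hmgcs1 at 0.20 (adjusted p = 0.0628) and Sqle at 0.19 (adjusted p = 0.0842), and without intact female 2 Dhcr7 was called at 0.24 (adjusted p = 0.0461). Over all alternatives adjusted p ran from 0.0628 to 0.947 for Hmgcs1, from 0.0842 to 0.939 for Sqle and from 0.0461 to 0.694 for Dhcr7. With the shorter class alone, 2 males against 2 females, the log2 fold change was -0.02 for Hmgcs1, -0.06 for Fdft1, -0.02 for Cyp51 and -0.001 for Insig1, turned against the values over all intact rats. For the other 3 it was 0.02 for Sqle, 0.12 for Dhcr7 and 0.10 for Srebf2. With class as a term, over all intact rats, it was 0.15 for Hmgcs1, 0.14 for Sqle, 0.02 for Fdft1 and 0.10 for Cyp51. In the same fit it was 0.18 for Dhcr7, 0.06 for Insig1 and 0.055 for Srebf2.

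GDX males and OVX females, compared to see how the sexes differ without gonads, had levels of the 7 genes that overlapped throughout. edgeR called 0 of 7 and DESeq2 0, beside 35 of 15084 genes in edgeR (0.232%) and 0.862% in DESeq2. At an unadjusted p under 0.05 there was 1 of 7, Cyp51, beside 9.37% of all genes, with a log2 fold change of 0.10 ± 0.04 (adjusted p = 0.487). The other 6 ran from -0.07 for Srebf2 to 0.11 for Dhcr7, and the median of the 7 was 0.02, beside 0.00 over all genes. The value of Srebf2 was -0.12 without GDX male 1 and -0.03 without GDX male 4, and that of Dhcr7 0.06 without OVX female 3.

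Whether the response to gonadectomy differed between the sexes was tested directly over all 22 rats. edgeR called 0 of the 7 for this interaction and DESeq2 0, beside 18 of 15562 genes in edgeR (0.116%) and 1.56% in DESeq2, and at an unadjusted p under 0.05 there were 0 of 7, beside 11.6% of all genes. The difference, male response minus female response, had a median of -0.08 log2 units over the 7 genes, beside 0.002 over all genes. It ran from -0.12 for Srebf2 to 0.00 for Fdft1, whose sign turned when 1 rat was left out, for GDX males 5 and 6, intact males 2 and 6, intact females 1, 2 and 5 and OVX females 2, 3, 5 and 6, with -0.02 as the lowest value. It was -0.10 ± 0.08 (interval -0.25 to 0.06) for Hmgcs1 and -0.11 ± 0.07 (interval -0.26 to 0.04) for Sqle. That of Hmgcs1 was -0.15 without intact male 2, -0.06 without GDX male 2, -0.06 without intact male 3 and -0.06 without intact female 3. With class as a term the difference was -0.10 for Hmgcs1, -0.11 for Sqle, -0.01 for Cyp51 and -0.05 for Insig1. In the shorter class alone the sign turned for Hmgcs1 (0.08), Sqle (0.001), Cyp51 (0.11) and Insig1 (0.01). That of Cyp51, -0.01 over all rats, also turned without any of GDX males 1 and 2, intact males 1 and 3, intact females 3 and 6 and OVX females 1 and 2, with 0.02 as the highest value. The intervals of all 7 genes held 0.

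Among intact rats, the longer against the shorter fragment class with sex as a term gave 0 of 7 genes called in edgeR and 0 in DESeq2, beside 1 of 15147 genes in edgeR (0.0066%) and 0.383% in DESeq2. No gene of the 7 had an unadjusted p under 0.05 (0 of 7, beside 7.72% of all genes). The log2 differences between classes ran from -0.02 for Dhcr7 to 0.08 for Sqle. The sign of Dhcr7 turned without single rats, to 0.01 without intact male 5, 0.02 without intact female 1, 0.01 without intact female 5 and 0.003 without intact female 6. Without intact male 2 or intact female 2 it was -0.07 each time, and that of Sqle was 0.01 without intact male 2. The class difference was 0.04 ± 0.06 for Hmgcs1, where the interval was -0.09 to 0.17 and the value without intact male 2 was -0.03 and without intact female 4 0.08. With class as a term, the log2 fold change of Hmgcs1 was 0.20 in GDX males and 0.13 in OVX females. In the same order it was 0.06 and -0.02 for Fdft1, 0.13 and 0.13 for Sqle, and 0.17 and 0.07 for Cyp51. For the other 3 it was 0.14 and 0.16 for Dhcr7, 0.04 and 0.03 for Insig1 and, for Srebf2, -0.07 and 0.10.

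The wider pathway was read from lists of genes for each stage. In GDX against intact males none of the lists of synthesis and its control held a called gene, with 0 of 9 for the mevalonate steps, 0 of 12 for the squalene and sterol steps and 0 of 7 for SREBP control in edgeR. At an unadjusted p under 0.05 these lists held 1, 2 and 1 genes, beside 23.8% of all genes, and DESeq2 called 0 in each. Their median log2 fold changes were -0.05, 0.05 and -0.08, beside 0.002 over all genes. The smallest p in each belonged to Idi1, the isopentenyl diphosphate isomerase (0.16 ± 0.07, adjusted p = 0.166), to Sc5d, a sterol desaturase (0.13 ± 0.06, adjusted p = 0.17), and to Mbtps2, the protease that makes the final cut in SREBP (-0.16 ± 0.07, adjusted p = 0.185), and none of these was called.

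The lists of later handling of cholesterol held called genes in GDX males. Over the 5 cholesterol lists and the fatty acid list edgeR called 8 of 58 genes tested. That share is near the 13.4% of all genes called. Of the efflux, storage and turnover list 4 of 11 were called, 3 higher and 1 lower, with a median log2 fold change of 0.15. Lcat, whose product esterifies cholesterol on lipoproteins, rose from 22 ± 1.59 CPM (n = 5) to 30.8 ± 3.4 (n = 5), a log2 fold change of 0.48 ± 0.08 (adjusted p = 0.00554), and every GDX male lay above every intact male. Abcg4, a sterol exporter found mainly in neural tissue, fell from 17.4 ± 1.45 to 12.7 ± 2.08 CPM, a log2 fold change of -0.45 ± 0.10 (adjusted p = 0.0162), and again the groups did not overlap. Ch25h, which makes 25-hydroxycholesterol, rose from 1.44 ± 0.4 to 2.65 ± 0.798 CPM, a low level, with a log2 fold change of 0.88 ± 0.26 (adjusted p = 0.0521) and overlapping groups. It was called in 10 of 19 alternatives. The call was lost at larger values with class as a term, 1.11 (adjusted p = 0.125), and in the shorter class alone, 1.11 (adjusted p = 0.155), and also with a term for RIN, 0.92 (adjusted p = 0.101), or for rat number, 0.79 (adjusted p = 0.219). It was lost as well without single rats, with an adjusted p of 0.126 without GDX male 4, 0.133 without GDX male 5, 0.102 without GDX male 6, 0.117 without intact male 5 and 0.111 without intact male 6, and ran from 0.0277 to 0.219 over its alternatives. Apoe, the main lipoprotein component that astrocytes release, rose from 2128 ± 150.4 to 2444 ± 175 CPM, a log2 fold change of 0.20 ± 0.06 (adjusted p = 0.0555). It was called in 11 of 19 alternatives, and not with class as a term, 0.16 (adjusted p = 0.311), in the shorter class alone, 0.16 (adjusted p = 0.304), or with a term for RIN, 0.18 (adjusted p = 0.164). Without single rats its adjusted p was 0.141 without GDX male 5, 0.106 without GDX male 6, 0.128 without intact male 1, 0.112 without intact male 2 and 0.127 without intact male 6, in a range of 0.0105 to 0.311 over its alternatives. Lcat (1.06e-05 to 0.0994) and Abcg4 (0.00206 to 0.0994) were called under each of their 19 alternatives, the shorter class alone among them.

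For uptake and transport in cells, 2 of 11 genes tested were called in GDX males, 1 in each direction, a share near the 13.4% of all genes. Npc2, which hands cholesterol on inside the lysosome, rose from 66.2 ± 7.36 CPM (n = 5) to 79.3 ± 5.48 (n = 5), a log2 fold change of 0.26 ± 0.07 (adjusted p = 0.0393). Without GDX male 5 its adjusted p was 0.106, and with a term for RIN 0.115, in a range of 0.0103 to 0.115 over its alternatives. Lrp8, a receptor of the lipoprotein receptor family that binds reelin, fell from 73.5 ± 4.42 to 63.5 ± 7.3 CPM, a log2 fold change of -0.21 ± 0.07 (adjusted p = 0.072). It was called in 8 of 19 alternatives. The call was lost, at much the same values, with class as a term, -0.23 (adjusted p = 0.204), in the shorter class alone, -0.22 (adjusted p = 0.276), and with a term for RIN, -0.21 (adjusted p = 0.146), or for rat number, -0.19 (adjusted p = 0.111). It was also lost without single rats, with an adjusted p of 0.156 without GDX male 4, 0.175 without GDX male 5, 0.156 without GDX male 6, 0.105 without intact male 1, 0.172 without intact male 2, 0.107 without intact male 3 and 0.126 without intact male 6, and of 0.0276 to 0.276 over its alternatives. In the fatty acid list, of targets of the related factor SREBP-1, 2 of 8 were called, both higher, beside the same 13.4% of all genes. These were the stearoyl-CoA desaturases Scd, at 153 ± 10.5 CPM in intact and 187 ± 11.2 in GDX males (0.29 ± 0.06 log2, adjusted p = 0.0082), and Scd2, at 5731 ± 108 and 6545 ± 289.8 CPM (0.19 ± 0.04 log2, adjusted p = 0.0138). Scd was called under each of its 19 alternatives, and Scd2 under all but the shorter class alone (0.19 log2, adjusted p = 0.135, in a range of 3.46e-05 to 0.135).

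In the same comparison, markers of other cell types were called as follows, beside 13.4% of all genes in edgeR and 14.1% in DESeq2. All 7 meningeal and fibroblast markers found of 8 listed were called higher in GDX males, with a median log2 fold change of 1.60. Their summed level was 59.9 to 174 CPM in intact and 158 to 494 CPM in GDX males, Col1a1 was the most abundant, and no marker was at 0. All 5 endothelial markers found of 6 were called higher as well, with a median of 0.54 and a summed level of 77.4 to 109.7 against 120.4 to 166 CPM, led by Flt1. For the astrocyte list 2 of 8 were called, both higher (median 0.10). The oligodendrocyte and myelin list had 1 of 10 called, higher (median 0.08), a share near that of all genes. DESeq2 called 2 of these 10, Cnp and Mbp. The oligodendrocyte precursor list had 1 of 5 called, higher, in edgeR (median 0.03) and 1 in DESeq2, Pdgfra. All 6 microglia markers tested were higher (median 0.15), with 0 called in edgeR and 1 in DESeq2, P2ry12. Erythroid markers, with 3 of 3 called higher, are given in the last section. The Schwann cell and root list had 2 of 5 called, both higher, in edgeR and 0 in DESeq2 (median 1.07). Of the neuron list 2 of 6 and of the motor neuron list 2 of 8 were called lower, with medians of -0.22 and -0.21. DESeq2 called 2 of 6 and 3 of 8 in these lists. Between the longer and the shorter class among intact rats the medians were 0.11 for the neuron, 0.38 for the motor neuron and 0.62 for the Schwann cell and root list. Summed, the neuron list, led by Nefm, was at 10040 to 15240 CPM in intact and 8893 to 10760 in GDX males, and the astrocyte list, led by Gfap, at 6158 to 6874 and 7271 to 8204 CPM. The part of these lists in the changes of Lcat, Abcg4, Ch25h, Apoe, Npc2, Lrp8, Scd and Scd2 was not tested.

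**Figure D4:**
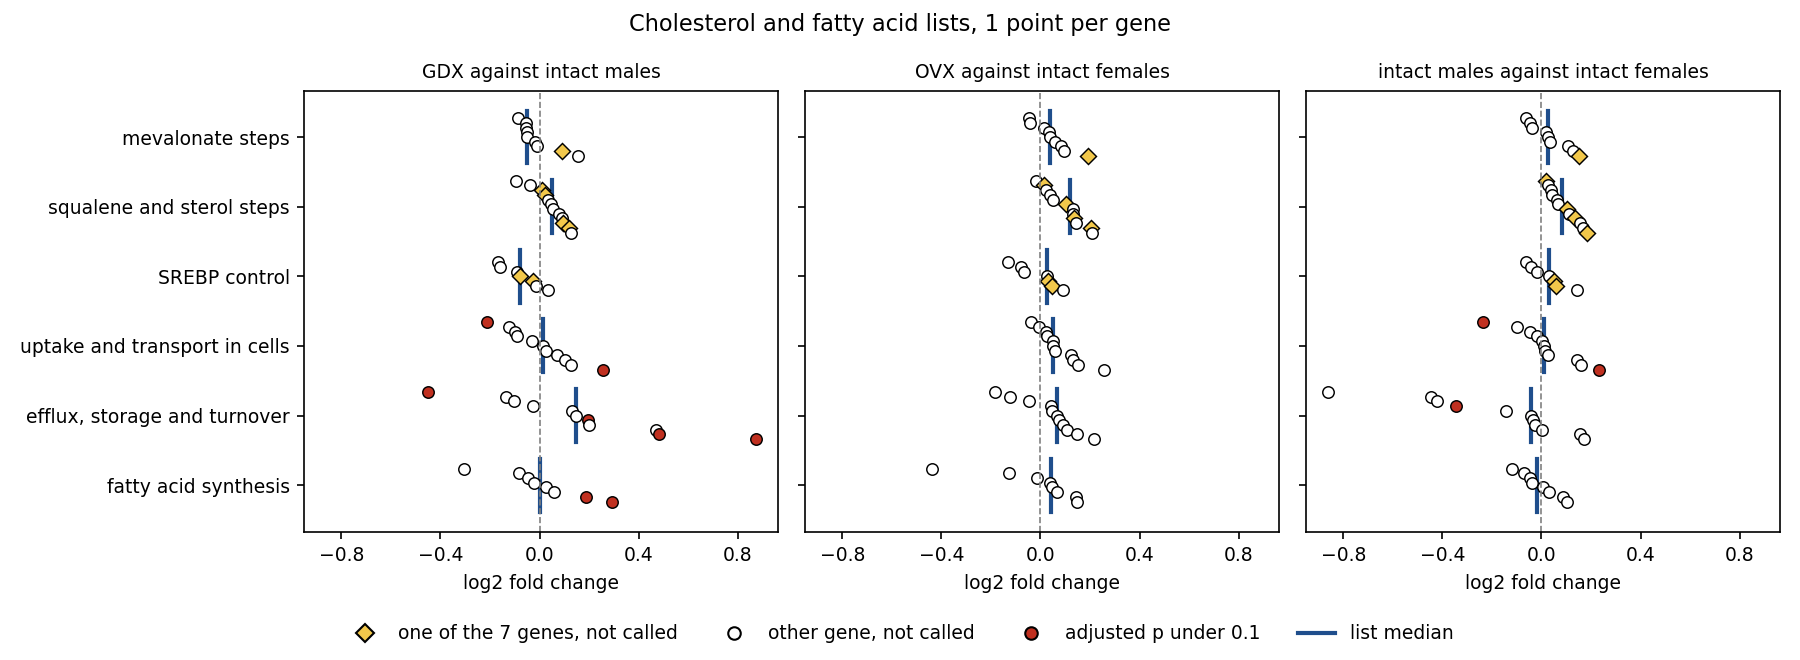
Log2 fold change of each gene tested (1 point per gene) in 5 cholesterol lists and 1 fatty acid list for 3 comparisons, with diamonds for the 7 genes described here, red for an adjusted p under 0.1 in edgeR and a vertical bar for the list median. The called genes lie in the lists of uptake, efflux and fatty acid synthesis, and 0 of the synthesis and control genes are called in these 3 panels.

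In OVX against intact females edgeR called 0 of the 58 genes tested of these 6 lists, with 17 at an unadjusted p under 0.05, beside 10.2% of all genes at that level, and DESeq2 called 2, Hmgcs1 and the acetyl-CoA synthetase Acss2, beside 1.17% of all genes, while the list medians of synthesis were above that of all genes. The squalene and sterol steps had 11 of 12 genes higher, 6 of them at an unadjusted p under 0.05, with a median log2 fold change of 0.12 beside 0.003. The 12 include Sqle, Fdft1, Cyp51 and Dhcr7, described above and all higher, and the 6 include Sqle, Cyp51 and Dhcr7. The mevalonate steps had 7 of 9 higher, 3 at that level (median 0.04), and SREBP control 4 of 7, 0 at that level (median 0.03). Hmgcs1 is among the 3 of the mevalonate steps, and SREBP control includes Insig1 and Srebf2. The 17 genes therefore include Hmgcs1, Sqle, Cyp51 and Dhcr7, and these lists in part repeat the values of the 7 genes. Uptake and transport had 9 of 11 higher (median 0.05) and efflux, storage and turnover 8 of 11 (median 0.07). The fatty acid list had 5 of 8 higher (median 0.04), with values from -0.44 to 0.15. At an unadjusted p under 0.05 it held 2 higher and 1 lower. Outside the 7 genes, the smallest p of each cholesterol list belonged to Idi1 (0.09 ± 0.04, adjusted p = 0.488), to the sterol oxidase Msmo1 (0.13 ± 0.04, adjusted p = 0.263) and to Mbtps1, the protease of the first cut in SREBP (0.09 ± 0.06, adjusted p = 0.65). Further on they belonged to Mylip, a ligase that marks lipoprotein receptors for breakdown (0.26 ± 0.08, adjusted p = 0.271), and to Lcat (0.21 ± 0.08, adjusted p = 0.334). None of these 5 genes was called.

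Between intact males and intact females edgeR called 3 of the 58 genes of these lists, a share near the 4.01% of all genes, and DESeq2 called 7, beside 820 of 14937 genes (5.49%). Vldlr, the very low density lipoprotein receptor, was higher in males, at 90.1 ± 4.06 CPM (n = 5) against 76.8 ± 4.2 (n = 6), a log2 fold change of 0.23 ± 0.05 (adjusted p = 0.0148), with no overlap between the groups. Lcat was lower in males, at 22 ± 1.59 against 28 ± 3.19 CPM (-0.35 ± 0.08 log2, adjusted p = 0.0284). So was Npc2, at 66.2 ± 7.36 against 78.1 ± 5.06 CPM (-0.24 ± 0.07 log2, adjusted p = 0.0813). The call of Npc2 was lost without single rats, with an adjusted p of 0.17 without intact male 1, 0.169 without intact male 2, 0.155 without intact male 5, 0.132 without intact male 6, 0.13 without intact female 2, 0.134 without intact female 3, 0.156 without intact female 4 and 0.148 without intact female 6. In the shorter class alone, 2 males against 2 females, none of the 3 was called, with log2 fold changes of 0.24 (adjusted p = 0.39) for Vldlr, -0.21 (adjusted p = 0.544) for Lcat and -0.39 (adjusted p = 0.27) for Npc2. Vldlr and Lcat were called in each of their other 19 alternatives, class as a term among them, and Npc2 in 10 of 20. The call of Npc2 was also lost with a term for rat number, -0.22 (adjusted p = 0.213). Over the alternatives adjusted p ran from 0.000336 to 0.39 for Vldlr, from 0.0038 to 0.544 for Lcat and from 0.0219 to 0.27 for Npc2. The meningeal and fibroblast markers were lower in the same males, 5 of 7 called, with a median log2 fold change of -1.24, a summed level of 59.9 to 174 CPM against 126 to 418 in females, Col1a1 on top and no marker at 0. The Schwann cell and root list, led by Pllp, had a median of -1.50 with 5 of 5 lower, 2 called in edgeR and 3 in DESeq2, and a summed level of 118 to 155 CPM against 158 to 208 in females. Of other markers, edgeR called Snap25 (neuron) and Gpr17 (oligodendrocyte precursor) higher and Cdh5 (endothelium) lower in males. The part of these lists in the values of Vldlr, Lcat and Npc2 was not tested. These intact males are also the comparison group of GDX males. In GDX males against OVX females edgeR called 0 of the 58 genes, with 5 at an unadjusted p under 0.05, beside 9.37% of all genes, and DESeq2 called 0. For the interaction edgeR called 0 of 58, with 9 at that level, beside 11.6% of all genes, and DESeq2 called 1, Scd2, a share near the 1.56% of all genes it called.

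The spread of the 7 genes between rats of a group was in the lower part of that of all genes, and their levels were in the upper part, with 72.5% of genes lower than Dhcr7 and at least 91.7% lower than each of the others. The within-group SD was 0.0686 log2 units for Fdft1, 0.0697 for Cyp51, 0.0913 for Hmgcs1 and 0.125 for Dhcr7, where 7.6%, 8.02%, 20% and 38.4% of 15562 genes had a lower one. After log2 levels were centred within the 4 groups, 19 of the 21 pairs among the 7 genes had a positive Pearson r over the 22 rats, with a median of 0.495 and 10 pairs over 0.5, whereas the median r of each gene with all genes lay between -0.013 and 0.021. Each pair was also read without the 2 rats farthest from the median of 1 of its genes. That gene was the first of the pair in the order Hmgcs1, Sqle, Fdft1, Cyp51, Dhcr7, Insig1, Srebf2. Rats far out only for the other gene were kept. Then r was over 0.5 only for Hmgcs1 with Cyp51 (0.757), Hmgcs1 with Fdft1 (0.532), Sqle with Insig1 (0.552) and Fdft1 with Cyp51 (0.543). Hmgcs1 and Cyp51 were the closest pair, with r = 0.865 and Spearman's rho = 0.826 (n = 22). Their r was 0.757 without intact male 2 and intact female 3, the rats farthest from the median of Hmgcs1. It was 0.874 within the shorter class (15 rats) and 0.846 within the longer (7 rats). Intact male 2 and intact female 3 were low for several of the genes at once, and some values of r drop without them. For Hmgcs1 and Sqle r was 0.542 with rho = 0.229, and 0.385 without those rats, and for Hmgcs1 and Dhcr7 it went from 0.297 (rho = 0.2) to 0.056. For Cyp51 and Insig1 it went from 0.255 (rho = 0.298) to 0.041 without the same rats. For Dhcr7 and Insig1 it went from 0.217 (rho = 0.203) to 0.053 without OVX female 3 and intact female 2. Within the shorter and the longer class, in that order, r was 0.783 and 0.177 for Hmgcs1 and Sqle, 0.049 and 0.626 for Cyp51 and Insig1, 0.326 and 0.274 for Hmgcs1 and Dhcr7, and 0.119 and 0.407 for Dhcr7 and Insig1, and these differences were not tested. Srebf2 had a negative r with Hmgcs1 (-0.216, rho = -0.273) and with Cyp51 (-0.229, rho = -0.188). Its r was positive with Dhcr7 (0.339), Insig1 (0.272), Fdft1 (0.224) and Sqle (0.177). Within the shorter and the longer class it was 0.576 and -0.223 with Dhcr7, and 0.276 and -0.212 with Sqle. These are descriptions with no test, and the 7 levels of a rat come from 1 library and share its depth.

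**Figure D5:**
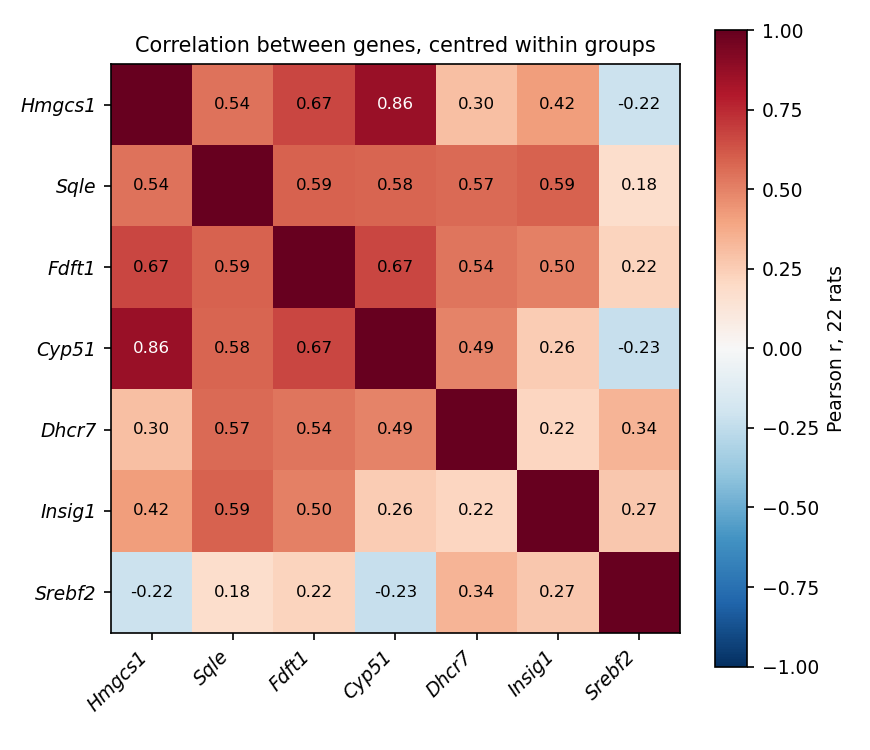
Pearson r between the log2 levels of each pair of the 7 genes over 22 rats after centring within the 4 groups, with red for positive and blue for negative values. The 6 genes other than Srebf2 are positively related in every pair, most closely Hmgcs1 and Cyp51, and Srebf2 is negative with those 2.

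The genes most like the 7 were sought among 15555 others by the r between their centred level and the mean of the centred z-scores of the 7 over the 22 rats. Of the 8 with the highest r, those described here include Selenoi (r = 0.768, rho = 0.676, and 0.661 without the 2 farthest rats), Rac1 (r = 0.751, rho = 0.682, and 0.703 without the 2 farthest rats) and Kif22 (r = 0.741, rho = 0.684, and 0.578 without the 2 farthest rats). Msmo1 and Hsd17b7, enzymes of the sterol steps, were also among them. Their values were r = 0.718, rho = 0.713 and 0.644 without these rats for Msmo1, and r = 0.71, rho = 0.637 and 0.584 for Hsd17b7. A further 2 of the 8 are loci without a gene symbol and with low levels, 1 with r = 0.786, rho = 0.775 and 0.768 without these rats at a mean of 0.581 CPM, the highest r of the 8, and 1 with r = 0.735, rho = 0.671 and 0.581 without these rats at a mean of 0.777 CPM. The 2 rats farthest from the median profile were intact male 2 and intact female 3. By list, with the value without these 2 rats in brackets, the median r with the profile was 0.476 (0.426) for the other 8 genes of the squalene and sterol steps, 0.404 (0.242) for the other 8 of the mevalonate steps and -0.017 (-0.263) for the other 5 of SREBP control. It was 0.222 (0.384) for the 11 of uptake and transport, -0.2 (-0.129) for the 11 of efflux, storage and turnover and 0.306 (0.271) for the 8 of fatty acid synthesis. Of markers it was 0.359 (0.186) for the 10 of oligodendrocytes and myelin, 0.008 (-0.078) for the 8 of astrocytes and 0.096 (-0.042) for the 6 of neurons, beside 0 (0.002) over all genes.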

How the data were processed

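RNA of the ventral cervical spinal cord was sequenced from 22 rats. The values used are raw counts per gene that the authors deposited, with 0 columns left unmatched to a rat and 12371756 to 17571887 reads counted per rat. The paper names Hisat2 for mapping and Subread featureCounts for counting, while the submitters' processing notes name TopHat2 2.0.13, Subread, edgeR and FastQC, with the genome Rnor_6.0, so the aligner is not settled here. Strand and multi-mapping settings of the counting are not given in the sources used here. Counts were fitted in R 4.3.3 with edgeR 4.0.16 (filterByExpr, TMM, glmQLFit, glmQLFTest) over all genes, with Benjamini-Hochberg adjustment and a call at an adjusted p under 0.1. Each comparison used its own groups, except the interaction, which used all 4. Log2 CPM for correlations had a prior count of 2, and intervals are 95% intervals from the fit. The pipeline was tested on simulated data with planted changes larger than any of the 7 genes. That test therefore does not show whether changes of their size would be called. Named are the 7 genes, the genes of the cholesterol and fatty acid lists with an adjusted p under 0.1 (up to 5 a list), the gene with the smallest p of each cholesterol list without a call in the gonadectomy comparisons, and those most like the 7, of which 5 genes are named and 2 are loci without a symbol. Named beyond it are genes that make up small counts of calls, chosen after their values were seen. The 7 genes and the lists were chosen with earlier results of these data known. The result of 1 gene that the rule takes in is not reported here. As alternatives the counts were fitted by DESeq2 1.42.0, scaled by RLE, left unfiltered or filtered at 1 CPM, called at an adjusted p under 0.05, given a term for RIN, fragment class or rat number (replicate block), limited to the shorter class, or taken from 1 fit of 22 rats. Each rat was also omitted by itself. P-values describe the spread between rats. Promoter letters come from RefSeq (GRCr8), and no coordinates of the count table's genome are given.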

Additional observations from a re-analysis of the deposited data

Results flagged for a closer look

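Of 64 groups of levels searched, each of 1 gene in 1 group of rats, 4 held a rat far from the others by Dixon's test at 95%, which chance gives in about 1 of 20 groups. Hmgcs1 read 442 CPM in intact female 3, below the other 5 intact females at 505 to 530.1 CPM. In OVX female 3, Dhcr7 read 32.8 CPM, below 39 to 42.3 in the other 5, and Srebf2 read 194 CPM, below 208 to 215. Ch25h read 1.37 CPM in OVX female 5, below 2.81 to 3.46 in the others.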

How the results depend on the processing

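The 42 log2 fold changes of the 7 genes had 868 alternatives, of which 811 kept the sign and 57 turned it, 39 of these with 1 rat left out. The largest turned value was 0.11, and 5 alternatives gave a call. With fragment class as a term, turned values were for GDX males 0.035 (Insig1), for OVX females -0.015 (Fdft1) and for the interaction 0 (Fdft1). In the shorter class alone, turned values were for GDX males 0.036 (Insig1), for OVX females -0.019 (Fdft1), for intact males against intact females -0.02 (Hmgcs1), -0.056 (Fdft1), -0.015 (Cyp51) and -0.001 (Insig1) and for the interaction 0.076 (Hmgcs1), 0.001 (Sqle), 0.112 (Cyp51) and 0.009 (Insig1). With DESeq2, turned values were for the interaction -0.002 (Fdft1). With RLE factors, turned values were for the interaction -0.001 (Fdft1). With the rat number as a replicate block, turned values were for the interaction -0.005 (Fdft1). With RIN as a term, turned values were for the interaction 0.002 (Cyp51) and for fragment class 0.01 (Dhcr7). With 1 rat left out, some values turned. Over all such fits of these genes, turned or not, values ran, for GDX males, Sqle -0.029 to 0.056 and Fdft1 -0.014 to 0.031, for OVX females, Fdft1 -0.004 to 0.028, for intact males against intact females, Fdft1 0 to 0.044, for GDX against OVX, Insig1 -0.021 to 0.037, for the interaction, Fdft1 -0.023 to 0.021 and Cyp51 -0.041 to 0.02, for fragment class, Hmgcs1 -0.029 to 0.081, Fdft1 -0.02 to 0.041, Cyp51 -0.017 to 0.056 and Dhcr7 -0.069 to 0.017. Of the 7 genes, DESeq2 called 1 for OVX females. With 1 rat left out 0 to 1 of the 7 were called for OVX females. With 1 rat left out 0 to 2 of the 7 were called for intact males against intact females. Over the whole genome, 1995 genes called for GDX males became 1262 (RIN as a term), 1274 (rat number as a replicate block), 796 (fragment class as a term), 440 (shorter fragment class only) and 1264 (adjusted p under 0.05). Over the whole genome, 5 genes called for OVX females became 174 (DESeq2), 11 (no filter), 11 (RIN as a term), 0 (rat number as a replicate block), 9 (all 22 rats in 1 fit), 3 (fragment class as a term) and 1 (adjusted p under 0.05). Over the whole genome, 599 genes called for intact males against intact females became 255 (rat number as a replicate block), 34 (shorter fragment class only) and 333 (adjusted p under 0.05). Over the whole genome, 35 genes called for GDX against OVX became 130 (DESeq2) and 61 (all 22 rats in 1 fit). Over the whole genome, 18 genes called for the interaction became 243 (DESeq2), 33 (no filter), 6 (filter at 1 CPM), 5 (RIN as a term), 0 (rat number as a replicate block), 6 (fragment class as a term), 5 (shorter fragment class only) and 2 (adjusted p under 0.05). Over the whole genome, 1 gene called for fragment class became 58 (DESeq2), 210 (no filter), 0 (RIN as a term) and 0 (adjusted p under 0.05). With 1 rat left out these counts ran from 1202 (without GDX male 5) to 2446 (without GDX male 1) for GDX males, 0 (without OVX female 1) to 113 (without intact female 1) for OVX females, 352 (without intact male 1) to 777 (without intact female 1) for intact males against intact females, 23 (without OVX female 1) to 44 (without GDX male 1) for GDX against OVX, 1 (without GDX male 5) to 275 (without GDX male 1) for the interaction and 0 (without intact male 2) to 2 (without intact male 1) for fragment class. The cause of these changes was not tested. As a check of the rat numbers, the residual correlation of rats with the same number ran from -0.115 to 0.063. Numbers were taken only as names of rats, though these values cannot exclude a factor shared by number. Every pair of rats of a group differed beyond counting noise.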

Other observations

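Markers of other cells had these values in the same comparisons. Motor neuron markers had a median log2 difference of 0.38 between the longer and the shorter class among intact rats, with 8 of 8 higher. In edgeR 0 of 8 were called and 7 were at an unadjusted p under 0.05, beside 7.72% of all genes at that level. DESeq2 called 2, Chat and Slc18a3, beside 0.383% of all genes there. The Schwann cell and root list had a median of 0.62 there, with 0 of 5 called in edgeR, 1 at an unadjusted p under 0.05 and 0 called in DESeq2. Erythroid markers, led by Hba-a2, had a median log2 fold change of 1.71 in GDX males, with 3 of 3 called higher, beside 13.4% of all genes. In OVX females the median was 0.87, with 0 of 4 called in edgeR and 4 at an unadjusted p under 0.05, beside 10.2% of all genes. DESeq2 called 1 of them in OVX females, Hbb, beside 1.17% of all genes. The summed level of the erythroid markers ran from 5.25 to 31.5 CPM in intact females and from 26.3 to 44.9 CPM in OVX females. For the interaction, the 7 meningeal and fibroblast markers had a median of 1.30, with 0 of 7 called in edgeR. At an unadjusted p under 0.05 there were 6, beside 11.6% of all genes. DESeq2 called 2 for the interaction, Slc22a6 and Slc6a13, beside 1.56% of all genes. The Schwann cell and root list had a median of 1 there, with 5 of 5 higher. Of these 5, 4 were at an unadjusted p under 0.05 and 0 were called in edgeR or DESeq2. DESeq2 also called Cdh5 of the endothelial and Slc1a3 of the astrocyte list for the interaction.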
